A study of Mus musculus with 12 samples.

Results

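Left ventricles of mice that carry the T497A substitution in Prkca were compared with those of wild type (WT) mice 5 weeks after transverse aortic constriction (TAC), an operation that narrows the aortic arch and loads the left ventricle with pressure. The comparison rests on 6 of the study's 12 RNA sequencing libraries, taken by their labels: 3 of genotype Prkca T497A after TAC and 3 of genotype WT after TAC. Both groups had surgery when 10 weeks old, with the constriction sized by a needle of 27 gauge, and tissue was taken when they were 15 weeks old. The labels used here give neither the zygosity of the T497A allele nor strain or sex, and they do not say that each library comes from a separate mouse, so p-values may rest on technical spread alone. The 6 sham libraries (3 of each genotype, same ages) entered the same model and are given beside the TAC values where they help to read them.

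Protein kinase C alpha, the product of Prkca, is a serine/threonine kinase switched on by calcium and diacylglycerol and is a major conventional isoform of heart muscle. A newly made kinase molecule is phosphorylated on a threonine of its activation loop before it matures, and alanine in that place cannot accept a phosphate. In the heart the kinase is known as a brake on calcium cycling and contractility through inhibitor 1, protein phosphatase 1 and phospholamban. Pressure overload is known to bring out natriuretic peptides and fetal contractile isoforms, to activate fibroblasts that lay down collagen, and to lower the genes of fatty acid oxidation.

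The codon that the allele alters lies in exon 13 of the 17 exons of Prkca, at chr11:107978267-107978269 of GRCm38 on the minus strand. It is shown because it defines the 2 genotypes. The reference coding strand around it (chr11:107978237-107978299, capitals mark the codon that T497A alters, a threonine in the reference, in a reading frame of 672 codons) reads as follows, and the alanine allele itself was not read from these data.
Prkca around the T497A codon: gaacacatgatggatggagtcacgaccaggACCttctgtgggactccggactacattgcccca
Prkca transcripts were counted at 62.3, 50.03 and 59.7 CPM (counts per 1000000 counted reads) in the 3 WT TAC libraries and at 52.7, 54.4 and 53.8 CPM in the 3 T497A TAC libraries. The groups overlapped (log2 difference -0.10 ± 0.13 SE, T497A minus WT; edgeR adjusted p = 0.706). A base substitution need not alter a gene's count, so these levels do not check the genotype labels.

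The 6 TAC libraries held 39249028 to 44631082 counted reads each, and all 12 held 36862004 to 46898344. The chi-square per degree of freedom between replicates of a TAC group was 27.54 or more for every pair, so none was a copy of another. In a principal component analysis of the 6 TAC libraries the first component held 35.6% of the variance. WT libraries lay at 29.2, 22.8 and 39.6 on it and T497A libraries at -36.9, -18.1 and -36.6. Although the labels give cardiomyocyte as the cell type, no sorting step is described, and whole tissue was counted. The 12 markers of ventricular cardiomyocytes summed to 44600 to 53900 CPM in WT and 55500 to 58700 CPM in T497A. Defining markers of other cells were present in every TAC library, such as the endothelial gene Pecam1 at 143 to 196 CPM. Y-linked transcripts were present and Xist was at 0.268 CPM or less in all 6. The lung marker Sftpc was at 0.

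After TAC the ventricles of T497A mice had lower transcript levels of hypertrophy markers, Nppa among them, of collagens and their processing enzymes and of fibroblast activation genes than WT ventricles. They had higher levels of genes of fatty acid oxidation, and of the tricarboxylic acid (TCA) cycle and branched-chain amino acid breakdown. Of 15764 genes tested, 1371 (8.7%) were called, meaning an adjusted p under 0.05 with edgeR's quasi-likelihood test and Benjamini-Hochberg adjustment over all tested genes. Of these, 731 (4.64%) were higher in T497A and 640 (4.06%) lower, and 102 of the higher and 152 of the lower genes differed at least 2-fold. Most differences were small: the median log2 difference was 0.476 among genes called higher and -0.612 among genes called lower, against 0.003 over all tested genes. The 3 libraries of one genotype did not overlap the 3 of the other in 28% of all tested genes, and in 1361 of the 1371 called. After sham surgery the same test called 4 genes (0.0254%). Counts of called list members below stand beside the 8.7% of all tested genes. The share called was 50% for hypertrophy markers, 42.9% for collagens, 43.6% for matricellular genes, 59.1% for collagen processing and 36% for matrix proteases. It was 52.4% for fibroblast activation genes, 38.5% for general fibroblast markers and 25% for ventricular cardiomyocyte markers. Fatty acid genes had 45.2%, TCA and branched-chain genes 64.9% and mitochondrially encoded genes 69.2%.

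The number called depended on single libraries. Replicate numbers used here follow the order of the samples and are not from the labels. Replicates 1, 2 and 3 carry the title numbers 82, 64 and 151 in WT TAC and 137, 192 and 201 in T497A TAC. What the title numbers stand for is not given. The number called was 463 without WT TAC replicate 3, 592 without T497A TAC replicate 3, 653 without T497A TAC replicate 1 and 876 without WT TAC replicate 1. It was 1058 and 1455 without the remaining replicates 2 of WT and T497A. Every one of the 1371 genes kept its sign in each of these 6 fits. For the 1361 without overlap between genotypes, leaving a library out could hardly turn the sign, so this is no support for the calls. In the following, a gene said to have held its call was called in all 6 of them, as were 98 of the 192 called genes named by rule. For every called gene whose values per library follow, apart from Adgrf3 in the closing observations, the 3 libraries of one genotype did not overlap the 3 of the other. For a gene described with its values whose call was lost in any fit, the largest adjusted p over the 6 fits is given.

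**Figure D1:**
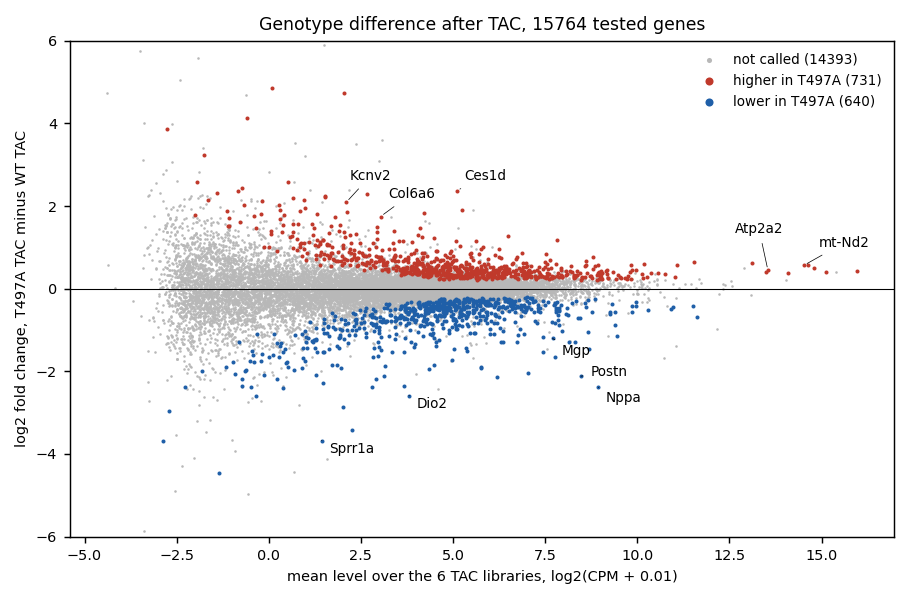
Difference between genotypes after TAC (vertical axis, log2 fold change, T497A minus WT) against mean level (horizontal axis, log2 of CPM plus 0.01) for 15764 tested genes; each point is a gene, red points are the 731 called higher in T497A and blue the 640 called lower. Genes called lower reach larger differences at middle and high levels, with Nppa and Postn at -2.39 and -2.12. A log2 difference beyond 6 in either direction falls outside the axis.

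Genes of the hypertrophic response were lower in T497A. Of 20 tested members of the list of natriuretic peptides and hypertrophy markers, 10 were called lower and 0 higher, with a median log2 difference of -1.19 against 0.003 over all genes. Nppa, the atrial natriuretic peptide that stressed ventricle makes, was at 500.1, 793 and 1187 CPM in the WT TAC libraries and at 97.1, 252 and 124 CPM in the T497A TAC libraries. All 3 T497A libraries lay below the lowest WT library, and in both groups the libraries spread widely (log2 difference -2.39 ± 0.53 SE, edgeR adjusted p = 0.0294, up to 0.107 with a library left out). The atrial light chain genes Myl7 and Myl4, markers of atrial tissue, overlapped between groups, with Myl7 at 4.69, 13.4 and 8.23 CPM in WT and 2.32, 14.3 and 20.4 CPM in T497A (adjusted p = 0.774). Sprr1a, a cornified envelope protein known as a stress gene of cardiomyocytes, was at 5.06, 2.82 and 7.11 CPM in WT and 0.268, 0.483 and 0.417 CPM in T497A, 12.8-fold lower (-3.68 ± 0.48, adjusted p = 0.000848). Uchl1, a deubiquitinating enzyme, was at 20.4, 23 and 23.8 CPM in WT and 6.67, 9.13 and 9.29 CPM in T497A (-1.42 ± 0.15, adjusted p = 0.000337). Gdf15, a stress hormone of the TGF-beta family, was at 5.44, 2.08 and 6.36 CPM in WT and 1.12, 0.532 and 1.2 CPM in T497A (-2.28 ± 0.44, adjusted p = 0.00783). Ccn2, the connective tissue growth factor, was at 246, 322 and 432 CPM in WT and 71.5, 99.4 and 147 CPM in T497A (-1.65 ± 0.30, adjusted p = 0.0125). The calls of Sprr1a, Uchl1, Gdf15, Ccn2 and Xirp1 held, and the groups did not overlap for any of them.

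Smaller differences were called in Xirp1 and Xirp2, actin-binding repair proteins of the intercalated disc (-0.71 ± 0.13 and -0.68 ± 0.16 on the log2 scale, adjusted p = 0.0068 and 0.0223), and in the stretch-linked Z-disc gene Csrp3 (-0.42 ± 0.09, adjusted p = 0.0137). Fhl1 was also called. Several classical markers did not pass in the main test. The slow myosin gene Myh7 was at 2493, 2379.7 and 2932 CPM in WT and 456, 772 and 1218 CPM in T497A, without overlap and with an adjusted p of 0.148. The fetal skeletal actin gene Acta1 was at 4299, 2105 and 2819 CPM in WT and 1002, 1871 and 671 CPM in T497A (adjusted p = 0.226). Nppb, the gene of brain natriuretic peptide, was at 408, 294 and 525 CPM in WT and 144, 193 and 175 CPM in T497A (adjusted p = 0.237). Rcan1, a calcineurin target, was at 394, 124 and 304 CPM in WT and 112, 104 and 80.6 CPM in T497A (adjusted p = 0.0667). Its WT replicate 2 lay near the T497A libraries. Among the alternative tests, limma-voom called Myh7 and Rcan1, and DESeq2 called Rcan1. The edgeR fit without robust estimation called Rcan1, and the fit of the 6 TAC libraries alone called Nppb. Acta1 was called in none of the alternatives. The 10 called members became 6 without T497A TAC replicate 1, 6 without T497A TAC replicate 3 and 5 without WT TAC replicate 3. Xirp2 and Csrp3 reached adjusted p = 0.0934 and 0.0685 with a library left out.

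Dio2, which encodes the deiodinase that makes active thyroid hormone inside the cell, had the largest difference among genes called lower with a mean of at least 5 CPM, no overlap and an established name. It was at 22.6, 17.7 and 31.8 CPM in WT and 3.61, 4.25 and 4.08 CPM in T497A, 6.03-fold lower (-2.59 ± 0.29, adjusted p = 0.000741), and its call held. After sham it was at 2.45 ± 0.742 CPM in WT and 2.2 ± 0.839 CPM in T497A (SD, n = 3). Star, the cholesterol carrier of the mitochondrial membrane, was at 18, 9.72 and 14.6 CPM in WT and 4.02, 4.78 and 2.71 CPM in T497A (-1.88 ± 0.24, adjusted p = 0.000732; call held). Nmrk2, a muscle kinase of nicotinamide riboside, was at 25.4, 9.63 and 29.2 CPM in WT and 1.78, 7.37 and 3.5 CPM in T497A (-2.35 ± 0.52, adjusted p = 0.0265, up to 0.104 with a library left out). Fgf6, a growth factor, was at 14.4, 8.8 and 19.7 CPM in WT and 1.7, 2.51 and 5.61 CPM in T497A (-2.13 ± 0.53, adjusted p = 0.0387, up to 0.131).

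Promoter sequence is shown for 3 of the genes lower in T497A, because each carries TATAAA just upstream of a start; the genes and the motif were chosen after their values were seen. The lines give 100 bases upstream of a RefSeq start (GRCm38.p6), 5′ to 3′ on the gene's strand, with capitals on TATAAA, at chr4:148000622-148000721 (plus) for Nppa, chr12:90739039-90739138 (minus) for Dio2 and chr3:54361007-54361106 (plus) for 1 of the 2 starts of Postn. The 100 bases before the other start of Postn, at chr3:54359167-54359266 (plus), hold no TATAAA.
Nppa: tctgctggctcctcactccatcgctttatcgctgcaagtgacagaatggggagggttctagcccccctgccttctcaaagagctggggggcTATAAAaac
Dio2: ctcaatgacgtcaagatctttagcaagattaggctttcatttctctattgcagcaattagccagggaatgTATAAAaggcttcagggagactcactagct
Postn: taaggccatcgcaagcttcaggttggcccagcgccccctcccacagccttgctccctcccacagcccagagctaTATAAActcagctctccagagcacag
TATAAA, the core of the TATA box, was searched on both strands of the RefSeq windows (250 bases before to 50 after each start). It was found for 7 of the 16 hypertrophy list members with a promoter (43.8%), against 9.49% of 11480 tested genes with one, 11.2% of genes called higher and 10.1% of genes called lower. It was found for 10 of 58 genes (17.2%) of the collagen, matrix glycoprotein and cross-linking lists, 5 of 100 (5%) of the fatty acid, TCA cycle and respiratory chain lists and 13.6% of all 32851 promoter windows. Of the other motifs searched, TGANTCA was found for 4 of the 16 (25%, against 6.49% of tested genes), the CArG box for 3 (18.8%, against 1.56%), the MEF2 site for 1 (6.25%, against 2.47%) and TNAAGGTCA for 0 (against 0.906%). A match describes letters and is not a binding site.

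Collagen genes were lower in T497A. Of 21 tested collagen genes of fibrils, networks and their partners, 9 were called lower and 0 higher (median -0.91). Col1a2, a chain of type I collagen, was at 561, 532 and 546 CPM in WT and 216, 346 and 227 CPM in T497A, 2.08-fold lower (-1.06 ± 0.17, adjusted p = 0.0050). T497A replicate 2 was the highest of its group, as in many matrix genes, and lay below every WT library. Its partner Col1a1 was at 464, 417 and 459.7 CPM in WT and 158, 252 and 139 CPM in T497A (-1.29 ± 0.30, adjusted p = 0.0316, up to 0.12 with a library left out). Col3a1, at 829, 807 and 807 CPM in WT and 296, 541 and 272 CPM in T497A, did not pass in the main test (adjusted p = 0.0898). It was called without T497A TAC replicate 2, by DESeq2, by limma-voom and without robust estimation. The fibril-associated Col12a1 was at 30.6, 29.8 and 36.8 CPM in WT and 5.62, 12.3 and 7.3 CPM in T497A (-1.95 ± 0.31). Col16a1 was at 34.8, 31.6 and 32.9 CPM in WT and 11.6, 17 and 11.8 CPM in T497A (-1.30 ± 0.17). The short-chain network collagen Col8a1 was at 323, 219.9 and 237 CPM in WT and 79.9, 121 and 68.4 CPM in T497A (-1.53 ± 0.26). The calls of Col1a2, Col12a1, Col16a1, Col8a1 and the basement membrane chain Col4a3 held. Col5a2, Col8a2 and Col11a1 were also called and lost their call in some fits; for Col5a2 and Col8a2 the adjusted p was 0.0158 and 0.0188, up to 0.0702 and 0.0822. The 9 called became 5 without T497A TAC replicate 3 and 5 without WT TAC replicate 1. In bulk tissue, fewer cells of a type and less RNA per cell cannot be told apart. The 13 general fibroblast markers, Col1a1 among them, summed to 2370 to 2750 CPM in WT and 2100 to 2220 CPM in T497A. Their part in the matrix differences was not tested.

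Col6a6, a chain of type VI collagen outside that list, differed the other way. It was at 4.43, 4.0 and 2.84 CPM in WT and 12.6, 11.9 and 13.4 CPM in T497A, 3.35-fold higher (1.75 ± 0.16, adjusted p = 0.000249), and its call held. After sham it was at 17.2 ± 3.13 CPM in WT and 16.3 ± 0.538 CPM in T497A (SD, n = 3). All 3 WT TAC libraries lay below the other 9 libraries.

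Matricellular proteins and glycoproteins of the matrix were lower in T497A, with 17 called lower and 0 higher of 39 tested (median -0.83). Postn, the matricellular protein periostin, was at 602, 546 and 584 CPM in WT and 86.6, 208 and 104 CPM in T497A, 4.34-fold lower (-2.12 ± 0.33, adjusted p = 0.00648). The WT libraries lay close together, and T497A replicate 2 was the highest of its group without reaching the WT range. The microfibril gene Mfap5 was at 84, 80.9 and 91.4 CPM in WT and 20.5, 30.8 and 16.5 CPM in T497A (-1.92 ± 0.23). Ltbp2, a latent TGF-beta binding protein family member, was at 86.8, 83.9 and 87.1 CPM in WT and 21.2, 30.8 and 16.8 CPM in T497A (-1.91 ± 0.33). Thbs4, a thrombospondin of stressed muscle and matrix, was at 111, 94.3 and 153 CPM in WT and 23.7, 41.2 and 17 CPM in T497A (-2.13 ± 0.38, adjusted p = 0.0115, 0.0555 without T497A TAC replicate 1). Ltbp3 (-0.76 ± 0.10), Ltbp4 (-0.56 ± 0.10) and the small proteoglycan Aspn (-0.65 ± 0.12) differed less. The calls of Postn, Mfap5, Ltbp2, Ltbp3, Ltbp4 and Aspn held. Cilp was close to the threshold, at 197, 166 and 266 CPM in WT and 42.1, 76.7 and 32.8 CPM in T497A (adjusted p = 0.0491, up to 0.156), and Mfap4 reached 0.0822. Comp and Fmod did not overlap between groups and did not pass in the main test (adjusted p = 0.0654 and 0.0661). Both were called by DESeq2, by limma-voom, without robust estimation and in the 6 TAC libraries alone. The 17 called became 7 without T497A TAC replicate 1, 9 without T497A TAC replicate 3, 10 without WT TAC replicate 1, 11 without WT TAC replicate 2 and 9 without WT TAC replicate 3.

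Mgp, matrix Gla protein, an inhibitor of calcification, was among the genes with the smallest p. It was at 311, 277 and 283 CPM in WT and 122, 135 and 119.9 CPM in T497A, 2.31-fold lower (-1.21 ± 0.11, adjusted p = 0.000258; call held), beside 70.3 ± 7.48 and 75.5 ± 12.7 CPM in the sham groups of WT and T497A (SD, n = 3).

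Enzymes that fold, trim and cross-link collagen were lower as well, 13 of 22 called lower and 0 higher (median -0.55). Lox, the lysyl oxidase that cross-links collagen and elastin, was at 36.6, 28.7 and 40.1 CPM in WT and 10.1, 12.7 and 6.69 CPM in T497A (-1.84 ± 0.21, adjusted p = 0.000692). Its relative Loxl3 was at 14.9, 13 and 17.5 CPM in WT and 7.81, 6.38 and 5.19 CPM in T497A (-1.23 ± 0.16). P4hb, a subunit of the collagen prolyl hydroxylase, was at 272, 279 and 286 CPM in WT and 179.8, 199 and 197 CPM in T497A; the difference was modest (-0.54 ± 0.06) and the replicates close (adjusted p = 0.000446). Pcolce, which speeds procollagen cleavage, was at 99.3, 78 and 76.2 CPM in WT and 39.9, 51.7 and 37.5 CPM in T497A (-0.97 ± 0.15). The cross-linking transglutaminase Tgm2 was at 254, 306 and 305 CPM in WT and 156, 170.1 and 182 CPM in T497A (-0.77 ± 0.11). The lysyl hydroxylase Plod3 was at 34.4, 33.2 and 34.6 CPM in WT and 23.5, 23.9 and 24.2 CPM in T497A (-0.51 ± 0.08). These 6 held their call. Crtap, Pcolce2, Serpinh1, Bmp1, Adamts2, Fkbp10 and Plod2 were the other 7 called, and between 9 and 13 members were called with a library left out.

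Among 25 matrix proteases and their inhibitors, 8 were called lower and 1 higher (median -0.45). Timp1, an inhibitor of metalloproteinases, was at 14.8, 9.1 and 11.3 CPM in WT and 1.87, 5.03 and 4.38 CPM in T497A (-1.64 ± 0.34, adjusted p = 0.0136). The protease inhibitor Serpine2 was at 62.2, 48.1 and 56.1 CPM in WT and 27.6, 32 and 28.9 CPM in T497A (-0.91 ± 0.11, adjusted p = 0.000577). Mmp23 was at 10.2, 10.9 and 10.2 CPM in WT and 4.44, 7.15 and 4.82 CPM in T497A (-0.93 ± 0.19). The membrane metalloproteinase Mmp15 was the member higher in T497A, at 70.9, 85.4 and 76 CPM in WT and 99, 106 and 103 CPM in T497A (0.41 ± 0.08, adjusted p = 0.00701). These 4 held their call. Mmp2, the gelatinase of fibroblasts, was at 124, 119.5 and 148 CPM in WT and 67.4, 96.3 and 60.1 CPM in T497A (-0.80 ± 0.18, adjusted p = 0.0202, up to 0.089). Adamts8, Adamtsl2 and Timp2 were also called. The 8 called lower became 5 without T497A TAC replicate 1, 4 without T497A TAC replicate 3 and 4 without WT TAC replicate 3.

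Fibroblast activation genes were lower in T497A, while general fibroblast markers were called in both directions. Of 21 activation genes 11 were called lower and 0 higher (median -0.98), and their summed level was 1381, 1200 and 1482 CPM in the WT TAC libraries and 401.3, 643.8 and 390.9 CPM in the T497A TAC libraries. Of 13 general fibroblast markers 3 were called lower and 2 higher (median -0.12), and their sum was 2750, 2374 and 2656 CPM in WT and 2216, 2197 and 2101 CPM in T497A. The sums of either list did not overlap between genotypes, and the difference between the lists was not tested. The general sum includes the collagen gene Col1a1, at 464, 417 and 459.7 CPM in WT and 158, 252 and 139 CPM in T497A. Without Col1a1 the general sums of the 2 genotypes overlap. Nox4, the superoxide-forming oxidase, was at 10.6, 13.9 and 10.4 CPM in WT and 5.29, 4.11 and 3.68 CPM in T497A (-1.42 ± 0.24, adjusted p = 0.00401). The secreted WNT antagonist Sfrp1 was at 47.9, 39.8 and 46.6 CPM in WT and 18.3, 27.6 and 22.1 CPM in T497A (-0.98 ± 0.14, adjusted p = 0.00142). Both held their call. Runx1, a transcription factor, was at 6.31, 5.73 and 7.41 CPM in WT and 2.95, 4.25 and 3.2 CPM in T497A (-0.90 ± 0.18, adjusted p = 0.00795, 0.0525 without WT TAC replicate 3). The homeobox gene Meox1 was at 58.8, 31.1 and 55.6 CPM in WT and 16.1, 18.1 and 9.5 CPM in T497A (-1.73 ± 0.40, adjusted p = 0.0315, up to 0.104). The 11 called became 7 without T497A TAC replicate 1, 6 without T497A TAC replicate 3 and 5 without WT TAC replicate 3.

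Scara5 and Dpep1 were the fibroblast markers higher in T497A. Scara5, a ferritin receptor, was at 7.41, 8.18 and 7.5 CPM in WT and 21, 15.5 and 14.6 CPM in T497A (1.15 ± 0.14, adjusted p = 0.000732; call held). The dipeptidase gene Dpep1 was at 25.9, 25 and 25.9 CPM in WT and 53.2, 34.3 and 37.2 CPM in T497A (0.70 ± 0.19, adjusted p = 0.0456, up to 0.139). The lower ones were Col1a1, Mfap4 and Pdgfrl, at 10.7, 9.75 and 11.9 CPM in WT and 4.91, 5.61 and 4.73 CPM in T497A (-1.08 ± 0.23, up to adjusted p = 0.0655). The 3 lower became 0 without T497A TAC replicate 1, 0 without T497A TAC replicate 3, 1 without WT TAC replicate 1 and 0 without WT TAC replicate 3.

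**Figure D2:**
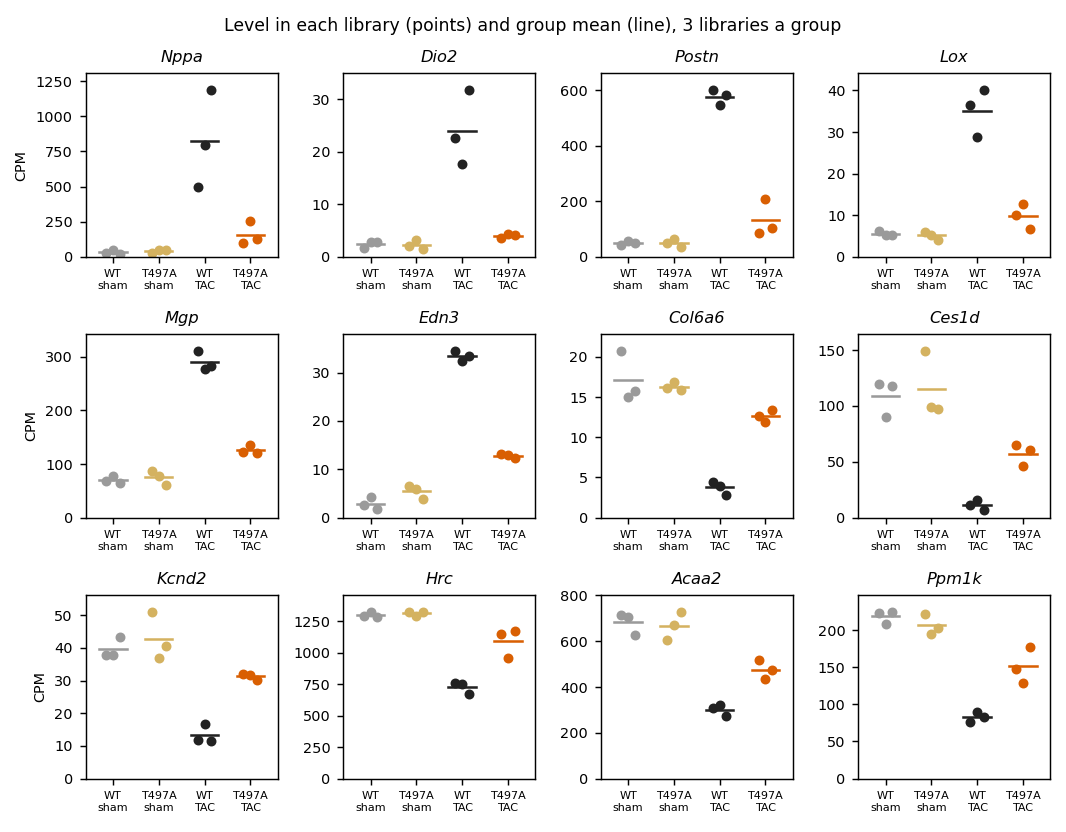
Level (vertical axis, CPM, from 0) of 12 genes in each of the 12 libraries; points are libraries, lines group means of 3, and the horizontal axis gives the group. In the first 6 panels the T497A TAC libraries lie below all WT TAC libraries (Nppa at 97.1 to 252 against 500.1 to 1187 CPM); in the last 6 they lie above all WT TAC libraries (Ces1d at 46.4 to 64.9 against 6.57 to 15.5 CPM).

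Ligands and regulators of TGF-beta signalling, the main profibrotic pathway, were called lower in 7 of 33 cases and higher in 0 (median -0.17). The 21.2% called stands beside 8.7% of all tested genes. The ligand Tgfb3 was at 32.7, 34.3 and 36.3 CPM in WT and 23, 20.2 and 16.9 CPM in T497A (-0.78 ± 0.11, adjusted p = 0.00142). The ligand Tgfb2 was at 64.7, 41.4 and 71.3 CPM in WT and 24.3, 35.9 and 24.4 CPM in T497A (-1.07 ± 0.21, adjusted p = 0.0114, up to 0.0541). Itgb5, an integrin subunit that can free latent TGF-beta, was at 151, 139 and 158 CPM in WT and 113, 98.6 and 90.2 CPM in T497A (-0.56 ± 0.10). The SMAD repressor Ski was at 114, 110.2 and 119 CPM in WT and 88.2, 87 and 89 CPM in T497A (-0.38 ± 0.06). Tgfb3, Itgb5 and Ski held their call. Gdf6, Fstl1 and the receptor gene Acvrl1 were the other called members, and the 7 became 3 without T497A TAC replicate 1 and 3 without T497A TAC replicate 3.

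WNT modulators were called lower in 7 of 23 cases and higher in 1, together 34.8% against 8.7% of all tested genes. Nkd2, an inhibitor that binds Dishevelled, was at 12.3, 10.03 and 9.79 CPM in WT and 3.73, 3.67 and 2.78 CPM in T497A, 3.16-fold lower (-1.66 ± 0.17, adjusted p = 0.000337). The heparan sulfatase Sulf1 was at 61.3, 56.3 and 63.9 CPM in WT and 33.9, 39.7 and 39.4 CPM in T497A (-0.69 ± 0.09, adjusted p = 0.000947). Both held their call. The ligand Wnt5a was the 1 higher, at 12.9, 10.6 and 9.32 CPM in WT and 14.6, 15.4 and 16.7 CPM in T497A (0.51 ± 0.12, adjusted p = 0.0224, up to 0.106). The 7 lower, with the secreted antagonists Sfrp1, Sfrp2 and Frzb, the receptor Fzd1 and the agonist Rspo1, became 3 without T497A TAC replicate 1, 3 without T497A TAC replicate 3, 4 without WT TAC replicate 1 and 3 without WT TAC replicate 3.

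Of 39 growth factors, vascular ligands and their receptors 7 were called lower and 0 higher (median -0.01). That is 17.9%, against 8.7% of all tested genes. Edn3, an endothelin, was at 34.5, 32.5 and 33.5 CPM in WT and 13.1, 12.9 and 12.4 CPM in T497A, 2.62-fold lower (-1.39 ± 0.25, adjusted p = 0.00692), with replicates of either group within a narrow range. Hbegf, a ligand of the EGF receptor, was at 38.8, 34.3 and 51.3 CPM in WT and 21.5, 20.9 and 23.2 CPM in T497A (-0.92 ± 0.13, adjusted p = 0.00136). The receptor Fgfr1 was at 52.1, 45.4 and 52.8 CPM in WT and 32.3, 36.4 and 32.7 CPM in T497A (-0.57 ± 0.09, adjusted p = 0.0037). Igfbp3 (-0.61 ± 0.12) and Igfbp7 (-0.80 ± 0.15), which bind insulin-like growth factors, were lower too. These 5 held their call. Fgf6 and the EGF receptor ligand Ereg did not; Ereg was at 1.36, 0.785 and 1.84 CPM in WT and 0.178, 0.338 and 0.139 CPM in T497A (adjusted p = 0.0334, up to 0.143).

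Genes of fatty acid uptake and oxidation were higher in T497A, 19 of 42 called higher and 0 lower, with a median log2 difference of 0.36. Acaa2, the thiolase of the mitochondrial cycle, was at 309, 323 and 271 CPM in WT and 516, 436 and 473 CPM in T497A, 1.58-fold higher (0.66 ± 0.09, adjusted p = 0.00134). Acsl1, which activates fatty acids with coenzyme A, was at 842, 766 and 739.6 CPM in WT and 1138, 1021 and 1048 CPM in T497A (0.45 ± 0.07, adjusted p = 0.00246). Acadm, the medium-chain dehydrogenase, was at 870.3, 891 and 784 CPM in WT and 1172, 1055 and 1225 CPM in T497A (0.44 ± 0.07). Etfa, which carries its electrons, was at 384, 386 and 349 CPM in WT and 561, 459 and 524 CPM in T497A (0.46 ± 0.07). Esrrg, a nuclear receptor of mitochondrial genes, was at 62.1, 66.2 and 63.9 CPM in WT and 89.4, 84.6 and 87.2 CPM in T497A (0.44 ± 0.07). The carnitine carrier Slc25a20 was at 113, 118 and 117 CPM in WT and 155, 141 and 151 CPM in T497A (0.36 ± 0.07). All 6 held their call, with no overlap between groups and a difference under 1.6-fold. In a test against a fold of 1.2, Acaa2 kept its call and Acsl1, Acadm, Etfa, Esrrg and Slc25a20 lost theirs. Decr1, Etfdh, Acadvl, Hadha, Cpt2, Echs1, Eci1, Hadhb, Etfb, Acot2, Acot1, Cd36 and Ppargc1b completed the 19, which became 10 without T497A TAC replicate 1, 11 without T497A TAC replicate 3 and 9 without WT TAC replicate 3. After sham the median of this list was 0.012. The 12 ventricular cardiomyocyte markers summed higher in T497A after TAC, as given above, and their part in the metabolic differences was not tested.

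The TCA cycle and branched-chain catabolism list had the highest share of calls among lists of nuclear genes, 24 of 37 higher and 0 lower (median 0.29). Ppm1k, the phosphatase that switches on branched-chain ketoacid breakdown, was at 76.1, 89.7 and 83 CPM in WT and 148, 128 and 177 CPM in T497A (0.87 ± 0.10, adjusted p = 0.00056). Dbt, a core subunit of the same complex, was at 64.1, 59.8 and 53.1 CPM in WT and 109, 83.3 and 101 CPM in T497A (0.73 ± 0.10, adjusted p = 0.00122). Mccc2, of leucine breakdown, was at 39.96, 44.5 and 41.2 CPM in WT and 63.2, 50.6 and 62.9 CPM in T497A (0.49 ± 0.09, adjusted p = 0.00521). Of the cycle itself, the succinyl-CoA ligase subunit Suclg2 was at 99.6, 101 and 93.8 CPM in WT and 142, 127 and 143 CPM in T497A (0.48 ± 0.07), and the subunit Sucla2 differed by 0.43 ± 0.07. The shared dehydrogenase subunit Dld was at 422, 443 and 424 CPM in WT and 571, 513 and 579 CPM in T497A (0.37 ± 0.06). These 6 held their call. The succinate dehydrogenase subunits Sdha, Sdhb and Sdhc, citrate synthase (Cs) and fumarase (Fh1) were among the others called. The 24 became 12 without T497A TAC replicate 1, 11 without T497A TAC replicate 3, 14 without WT TAC replicate 1 and 9 without WT TAC replicate 3. Against a fold of 1.2, Ppm1k, Dbt and Suclg2 kept their call and Mccc2, Sucla2 and Dld lost theirs.

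Fewer subunits of the respiratory chain were called. Of 45 nuclear-encoded subunits 10 were called higher and 0 lower (median 0.16), 22.2% against 8.7% of all tested genes. Cox7a1, the muscle isoform of a cytochrome oxidase subunit, was at 169, 185 and 151 CPM in WT and 276, 219.7 and 223 CPM in T497A (0.51 ± 0.10, adjusted p = 0.00921, 0.0554 without WT TAC replicate 3). The complex I subunit Ndufs1 was at 496, 533 and 504 CPM in WT and 669.5, 604 and 685 CPM in T497A (0.35 ± 0.07, adjusted p = 0.00958, 0.0521 without T497A TAC replicate 3). The 10 became 3 without T497A TAC replicate 1, 1 without T497A TAC replicate 3, 6 without WT TAC replicate 1 and 1 without WT TAC replicate 3. Of 13 protein-coding genes of the mitochondrial genome 9 were called higher and 0 lower (median 0.52). mt-Nd2 was at 19066, 19137 and 18753 CPM in WT and 27642, 26606 and 29968 CPM in T497A (0.56 ± 0.09, adjusted p = 0.00328). mt-Co1 was at 54718, 54040.0 and 54883 CPM in WT and 69906, 70653 and 78512 CPM in T497A (0.42 ± 0.08, adjusted p = 0.00622); mt-Nd1, mt-Nd5 and mt-Cytb also held their call. The mitochondrial genome gave 20.13% ± 0.698 of all counts in WT TAC, 25.34% ± 0.77 in T497A TAC, 26.88% ± 1.94 in WT sham and 29.24% ± 1.48 in T497A sham (SD, n = 3). With mitochondrial genes left out before scaling, 1305 genes were called, 1300 of them the same genes.

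Glycolytic genes went both ways, 6 called higher and 5 lower of 32 (median -0.03), a share of 34.4% against 8.7% of all tested genes. Higher in T497A was Pfkfb1, which sets the level of fructose 2,6-bisphosphate, at 2.13, 1.8 and 1.68 CPM in WT and 6.4, 6.19 and 7.64 CPM in T497A (1.85 ± 0.32, adjusted p = 0.00622). The phosphorylase kinase subunit Phkg1 was at 4.41, 6.14 and 4.33 CPM in WT and 9.75, 8.48 and 11.7 CPM in T497A (1.01 ± 0.16). The muscle fructose bisphosphatase Fbp2 was at 10.5, 9.49 and 8.72 CPM in WT and 13.4, 16.5 and 16.2 CPM in T497A (0.68 ± 0.13), and these 3 held their call. The insulin-sensitive glucose transporter Slc2a4 was at 223, 270.2 and 229.6 CPM in WT and 316, 289.8 and 321 CPM in T497A (0.36 ± 0.09, adjusted p = 0.0209, up to 0.0974). Lower in T497A were the lactate exporter Slc16a3 at 3.24, 2.56 and 4.01 CPM in WT and 1.41, 1.18 and 1.41 CPM in T497A (-1.29 ± 0.26, adjusted p = 0.00968, 0.0588 without WT TAC replicate 3). The hexokinase Hk1 was at 239, 245 and 265 CPM in WT and 196, 202 and 200.3 CPM in T497A (-0.32 ± 0.07, up to 0.0638). The phosphofructokinase isoform Pfkp was at 119, 78.6 and 130.2 CPM in WT and 55.1, 61.1 and 44.9 CPM in T497A (-1.02 ± 0.24, adjusted p = 0.0286, up to 0.105). The 6 higher became 10 without T497A TAC replicate 2, and the 5 lower became 3 without T497A TAC replicate 1, 2 without T497A TAC replicate 3 and 0 without WT TAC replicate 3.

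**Figure D3:**
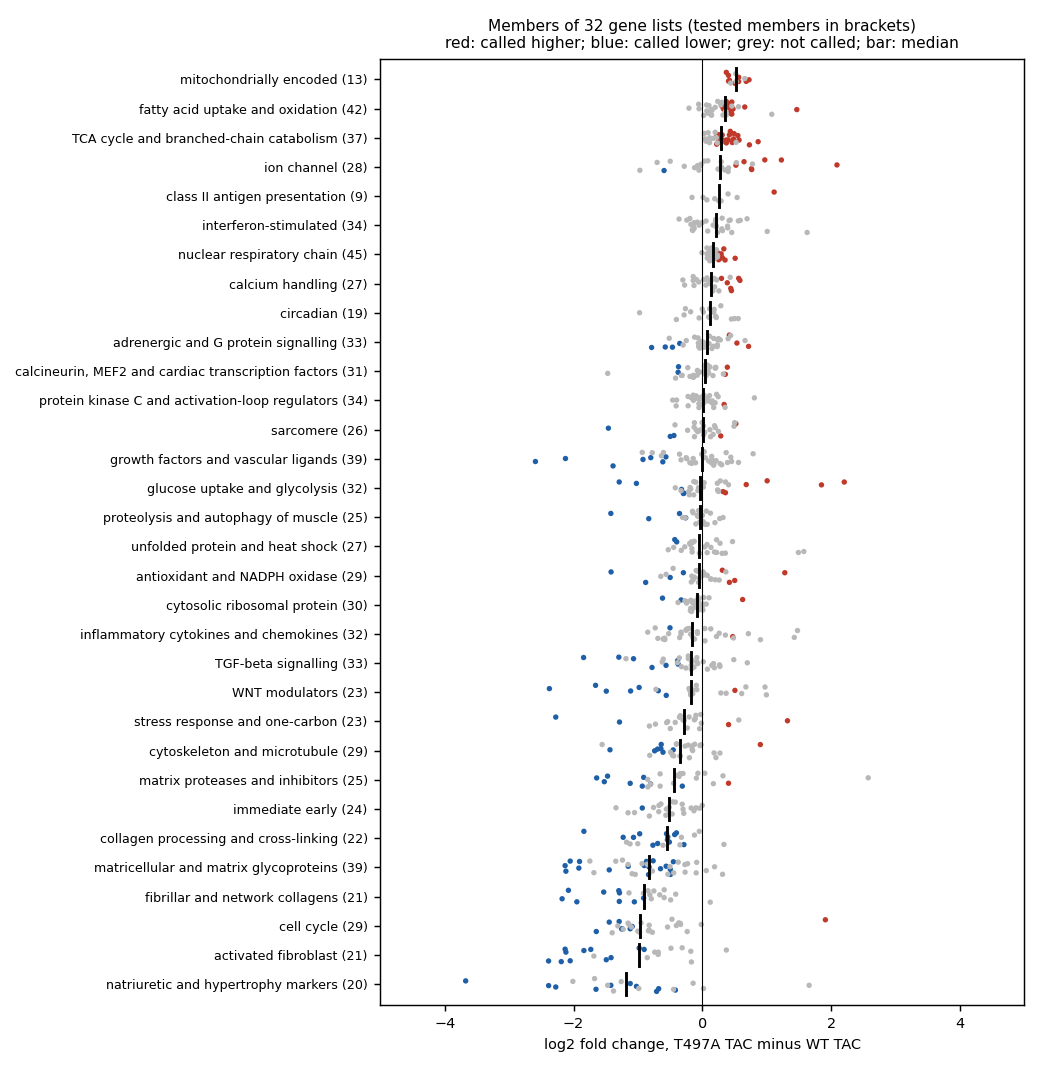
Log2 difference between genotypes after TAC (horizontal axis, T497A minus WT) of the tested members of 32 gene lists (rows, number tested in brackets); points are genes, red called higher, blue called lower, grey not called, and the black bar is the median. Medians run from -1.19 in the natriuretic and hypertrophy list to 0.52 in the mitochondrially encoded list, and the list of respiratory chain subunits has a narrow spread.

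Calcium handling genes, on which the kinase is known to act through phosphorylation, were called higher in 6 of 27 cases and lower in 0 (median 0.13). That share of 22.2% stands beside 8.7% of all tested genes. Hrc, a calcium-binding protein of the sarcoplasmic reticulum, was at 760.0, 750.3 and 674 CPM in WT and 1146, 955 and 1171 CPM in T497A (0.58 ± 0.08, adjusted p = 0.00101; call held). The calcium pump gene Atp2a2 was at 10386, 10774 and 9304 CPM in WT and 14656, 12361 and 14318 CPM in T497A (0.44 ± 0.09, adjusted p = 0.0115, up to 0.0659). Ryr2, the release channel, was at 1704, 1672 and 1882 CPM in WT and 2916, 2297 and 2556 CPM in T497A (0.56 ± 0.12, adjusted p = 0.0139, 0.0574 without T497A TAC replicate 1). Pln, the pump's inhibitor phospholamban, was at 1307, 1409 and 1182 CPM in WT and 1745, 1481 and 1869.5 CPM in T497A (0.39 ± 0.10, adjusted p = 0.0316, up to 0.141). The kinase gene Camk2a and the junctional protein gene Trdn were also called, and the 6 became 3 without T497A TAC replicate 1, 2 without T497A TAC replicate 3, 3 without WT TAC replicate 1 and 2 without WT TAC replicate 3. Ppp1r1a, the gene of inhibitor 1, was at 0.671 ± 0.19 CPM in WT and 0.543 ± 0.0844 CPM in T497A (SD, n = 3) and was not called.

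Of the ion channel list 28.6% was called, against 8.7% of all tested genes. Ion channel genes were called higher in 7 of 28 cases and lower in 1 (median 0.28), and all 7 encode subunits of potassium channels or their partners. The list holds 18 such genes, a grouping made after the values were seen, of which 7 were called higher and 0 lower (median 0.35). Kcnd2, a pore subunit of the transient outward current, was at 11.9, 16.8 and 11.5 CPM in WT and 32, 31.7 and 30.3 CPM in T497A, 2.34-fold higher (1.23 ± 0.15, adjusted p = 0.000702). Its accessory subunit Kcnip2 was at 71.9, 90.4 and 74.2 CPM in WT and 118, 129 and 154 CPM in T497A (0.76 ± 0.13, adjusted p = 0.00503). Kcnj3, a pore subunit of the G protein-gated channel, was at 44.2, 61.3 and 47.3 CPM in WT and 94.2, 87.4 and 117 CPM in T497A (0.97 ± 0.16). The modifying subunit Kcnv2 was at 1.18, 1.57 and 2.14 CPM in WT and 10.9, 4.71 and 5.24 CPM in T497A (2.09 ± 0.34). Abcc9, the sulfonylurea receptor of the ATP-sensitive channel, was at 342, 323 and 327 CPM in WT and 582, 483 and 622 CPM in T497A (0.77 ± 0.10, adjusted p = 0.000947). These 5 held their call. Kcnd3 was at 15.5, 11.7 and 12.3 CPM in WT and 26.2, 17.6 and 18.1 CPM in T497A (adjusted p = 0.0293, up to 0.121), and Kcnj5 completed the 7. Between 5 and 8 members were called higher with a library left out.

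Of 26 sarcomere genes 2 were called higher and 3 lower (median 0.01), a share of 19.2% against 8.7% of all tested genes. Synpo2l, a Z-disc protein, was at 699, 381 and 746 CPM in WT and 188, 268 and 208 CPM in T497A (-1.46 ± 0.23, adjusted p = 0.00622). The intermediate filament gene Des was at 2155, 2127 and 2558 CPM in WT and 1673, 1729.9 and 1437 CPM in T497A (-0.50 ± 0.09, adjusted p = 0.00622). Lmod3, an actin nucleator of thin filaments, was higher, at 107, 104 and 85.4 CPM in WT and 143, 138 and 143 CPM in T497A (0.52 ± 0.09, adjusted p = 0.00378). These 3 held their call; the M-band gene Myom1 (lower, -0.44 ± 0.11) and the inhibitory troponin Tnni3 (higher, 0.28 ± 0.08) reached adjusted p = 0.117 and 0.168 with a library left out. The adult myosin gene Myh6 was at 13517, 17978 and 15748 CPM in WT and 18910.0, 17772 and 17624 CPM in T497A, with overlap (adjusted p = 0.424), and the ventricular light chain genes Myl2 and Myl3 had log2 differences of 0.19 ± 0.09 and 0.02 ± 0.07. Of the 12 ventricular cardiomyocyte markers Ryr2, Pln and Tnni3 were called higher and 0 lower (median 0.14), and the 3 became 0 without T497A TAC replicate 1, 1 without T497A TAC replicate 3, 1 without WT TAC replicate 1 and 1 without WT TAC replicate 3.

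Cytoskeletal genes were called lower in 7 of 29 cases and higher in 1 (median -0.35), together 27.6% against 8.7% of all tested genes. Map6, which stabilizes microtubules, was at 9.64, 11 and 11 CPM in WT and 4.62, 3.29 and 3.78 CPM in T497A (-1.43 ± 0.15, adjusted p = 0.000337). The actin cross-linker Flnc was at 836, 595 and 810.2 CPM in WT and 487, 506 and 474 CPM in T497A (-0.61 ± 0.11). Map1b was at 44.5, 48.8 and 50.7 CPM in WT and 28, 36 and 28.1 CPM in T497A (-0.64 ± 0.10). The tubulin glutamylase gene Ttll1 was higher, at 14.9, 17.8 and 16.9 CPM in WT and 34.7, 28.8 and 28.8 CPM in T497A (0.90 ± 0.12, adjusted p = 0.00084). These 4 held their call. The tubulin genes Tuba1c, Tubb2a and Tubb5 (-0.74 ± 0.15, -0.70 ± 0.15 and -0.45 ± 0.12, up to adjusted p = 0.056, 0.0685 and 0.139) and the intermediate filament gene Vim were also lower, and the 7 became 3 without WT TAC replicate 3.

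Cell cycle genes were called lower in 7 of 29 cases (median -0.98). With the 1 called higher the share was 27.6%, against 8.7% of all tested genes. Tpx2, a spindle protein, was at 5.44, 5.68 and 5.29 CPM in WT and 1.16, 2.83 and 2.04 CPM in T497A (-1.45 ± 0.30, adjusted p = 0.0115; call held). The mitotic kinase Cdk1 was at 3.09, 3.79 and 3.36 CPM in WT and 1.05, 1.93 and 1.34 CPM in T497A (-1.24 ± 0.26, adjusted p = 0.0123, up to 0.0542). The cyclin Ccnb1 was at 1.58, 1.85 and 2.0 CPM in WT and 0.357, 0.725 and 0.649 CPM in T497A (-1.65 ± 0.38, adjusted p = 0.0179, up to 0.0762). The 7, with Cdc20, Aurka, Prc1 and Ube2c, became 1 without T497A TAC replicate 1, 2 without T497A TAC replicate 3, 4 without WT TAC replicate 2 and 2 without WT TAC replicate 3. Cenpf, a centromere protein, was the 1 higher, at 9.89, 20.7 and 17.1 CPM in WT and 36.7, 50.1 and 92.3 CPM in T497A (1.91 ± 0.44, adjusted p = 0.0336, up to 0.112), beside 81.2 ± 35.2 CPM in WT sham and 95.8 ± 12.2 CPM in T497A sham (SD, n = 3).

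In receptor and cyclic AMP signalling, 3 of 33 genes were called higher and 4 lower (median 0.07), 21.2% against 8.7% of all tested genes. Ace, the angiotensin-converting enzyme, was at 218, 177 and 170.3 CPM in WT and 100.4, 132 and 94.9 CPM in T497A (-0.79 ± 0.12, adjusted p = 0.00271). Prkar1a, a regulatory subunit of protein kinase A, was at 1060.3, 955 and 1287 CPM in WT and 685, 752 and 778 CPM in T497A (-0.58 ± 0.11, adjusted p = 0.00611). The phosphodiesterase Pde3a was higher, at 133, 118 and 125 CPM in WT and 176, 156 and 172 CPM in T497A (0.42 ± 0.07, adjusted p = 0.0031). These 3 held their call. The alpha-1B adrenoceptor Adra1b was at 11.4, 14 and 11.5 CPM in WT and 23, 19.5 and 18 CPM in T497A (0.72 ± 0.15, adjusted p = 0.0102, 0.0579 without WT TAC replicate 3). Pde4d (higher), Gnai2 and Ednrb (both lower) reached adjusted p = 0.0919, 0.13 and 0.177. The 4 lower became 2 without T497A TAC replicate 1, 2 without T497A TAC replicate 3, 2 without WT TAC replicate 1 and 2 without WT TAC replicate 3, and the 3 higher became 1 without WT TAC replicate 3.

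Among protein kinase C isoforms, their activators and the regulators of the activation loop 2.94% were called, against 8.7% of all tested genes. Of 34 tested, 1 was called higher and 0 lower (median 0.01). It was Phlpp1, a phosphatase of the hydrophobic motif of these kinases, at 25.5, 28.9 and 29.3 CPM in WT and 32.8, 39.2 and 33.7 CPM in T497A (0.34 ± 0.08, adjusted p = 0.0238, up to 0.0905). The phospholipase gene Plce1 came next, at 55.5, 58.3 and 61.2 CPM in WT and 67.3, 67.7 and 65.9 CPM in T497A, and was not called (adjusted p = 0.119). Among calcineurin pathway genes and cardiac transcription factors 2 of 31 were called higher, Tbx5 (0.36 ± 0.07; call held) and Mef2a (0.39 ± 0.08, up to adjusted p = 0.0515), and 2 lower, Nfatc2 (-0.38 ± 0.10, up to 0.138) and Tbx20 (-0.37 ± 0.11, up to 0.189). In that list 12.9% were called, against 8.7% of all tested genes.

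Stress response and redox genes were called in both directions, 17.4% of the former and 27.6% of the latter, against 8.7% of all tested genes. Muscle proteolysis genes had 16% called, ribosomal protein genes 10%, chaperones 7.41% and immediate early genes 4.17%. Of 23 stress response and one-carbon genes 2 were higher and 2 lower (median -0.28). Nupr1, a stress-induced nuclear protein, was at 10.5, 11.3 and 11.2 CPM in WT and 4.02, 4.93 and 4.54 CPM in T497A (-1.29 ± 0.13, adjusted p = 0.000337). The mitochondrial folate enzyme Aldh1l2 was at 2.78, 2.79 and 3.29 CPM in WT and 8.88, 5.24 and 8.01 CPM in T497A (1.32 ± 0.23, adjusted p = 0.00512); both held their call. Gdf15 (lower) and the lipoprotein receptor Vldlr (higher, 0.41 ± 0.09, up to adjusted p = 0.0654) were the others. Of 29 antioxidant and oxidase genes 4 were higher and 4 lower: Sod2 and Gstm1 were at log2 differences of 0.42 ± 0.08 and 0.50 ± 0.08. The secreted peroxidase Gpx3 was at 333, 252 and 337 CPM in WT and 203, 149.8 and 148 CPM in T497A (-0.88 ± 0.13, adjusted p = 0.0029). Those 3 and Nox4 held their call. The antioxidant counts became 2 without T497A TAC replicate 3, 2 without WT TAC replicate 1 and 2 without WT TAC replicate 3 for the higher and 2 without T497A TAC replicate 1, 2 without T497A TAC replicate 3 and 2 without WT TAC replicate 3 for the lower. Of 25 genes of muscle proteolysis 4 were lower, Uchl1, Ctsk (-0.83 ± 0.17), Sqstm1 (-0.36 ± 0.08, up to adjusted p = 0.0574) and Ctsd (-0.26 ± 0.07, up to 0.195), and the 4 became 2 without T497A TAC replicate 1 and 2 without WT TAC replicate 3. Of 27 chaperones and unfolded protein genes Hspb7 (-0.43 ± 0.09; call held) and Creld2 (-0.40 ± 0.11, up to 0.149) were lower. Of 30 ribosomal protein genes the muscle paralog Rpl3l was higher (0.62 ± 0.16, up to 0.118) and Rpl3 and Rpl27 lower (-0.62 ± 0.15 and -0.33 ± 0.09, up to 0.109 and 0.119). Of 24 immediate early genes 1 was lower, Maff (-0.93 ± 0.27, up to 0.188), and the median was -0.51. Of 19 circadian genes edgeR, DESeq2 and limma-voom called 0, and 1 had an unadjusted edgeR p under 0.05.

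Among immune genes the share called is set beside the 8.7% of all tested genes. It was 6.25% for cytokines and chemokines, 5.56% for macrophage markers and 7.69% for lymphocyte markers. For class II genes it was 11.1% and for interferon-stimulated genes 0%. Of 32 cytokines and chemokines Cxcl12 was higher (0.47 ± 0.11, adjusted p = 0.0174, up to 0.0651) and the oncostatin receptor Osmr lower (-0.50 ± 0.13, adjusted p = 0.0309, up to 0.133). Of 18 macrophage markers C1qa was lower (-0.42 ± 0.12, adjusted p = 0.0401, up to 0.148); the markers summed to 522.5, 426.1 and 427.5 CPM in WT and 340.9, 450.1 and 365 CPM in T497A, with overlap. Of 13 tested lymphocyte markers Ms4a4b was higher, at 0.263, 0.0462 and 0.233 CPM in WT and 0.535, 1.16 and 1.3 CPM in T497A (adjusted p = 0.0324, up to 0.109). Of 9 class II antigen presentation genes the transactivator Ciita was higher, at 1.29, 0.97 and 1.4 CPM in WT and 1.83, 2.68 and 3.43 CPM in T497A (adjusted p = 0.0208, up to 0.105). Of 34 interferon-stimulated genes edgeR called 0 (median 0.21), DESeq2 called 2 and limma-voom 0, and 6 had an unadjusted edgeR p under 0.05. The GTPase gene Igtp was at 9.36, 10.0 and 8.53 CPM in WT and 9.48, 18.2 and 58.5 CPM in T497A, with replicate 3 of T497A above the others.

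Among markers of the remaining cell types the share called is set beside the 8.7% of all tested genes. It was 7.69% for endothelial markers and 7.69% for smooth muscle and pericyte markers. For nerve and Schwann cell markers it was 12.5%, and for atrial markers 25%. Of 13 endothelial markers Esam was lower (-0.33 ± 0.08, up to adjusted p = 0.107), and their sum was 1511, 1459 and 1491 CPM in WT and 1530, 1644 and 1429 CPM in T497A, with overlap. Of 13 smooth muscle and pericyte markers Abcc9 alone was called, higher, and the sum of 1502, 1399 and 1374 CPM in WT and 1846, 1737 and 1796 CPM in T497A includes Abcc9 itself and did not overlap between groups. Of 8 nerve and Schwann cell markers Pmp22 was lower, at 88.1, 88.3 and 91 CPM in WT and 43.2, 54.4 and 52.7 CPM in T497A (-0.83 ± 0.09, adjusted p = 0.000337; call held). Of 8 tested atrial markers Nppa was lower and the lipid carrier Stard10 higher (0.66 ± 0.12; call held). Among the 37 tested neutrophil, epicardial, adipocyte, erythrocyte, skeletal muscle, lung, thymus and sex-linked genes edgeR and limma-voom called 0 and DESeq2 called 2, and 5 had an unadjusted edgeR p under 0.05. The fast skeletal myosin Myh4 stood at 1.23, 15.6 and 0.186 CPM in WT and 0.848, 0.0483 and 0.0463 CPM in T497A, so WT TAC replicate 2 had the most of it. Without that library 1058 genes were called; the part of skeletal muscle in the other results was not tested.

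**Figure D4:**
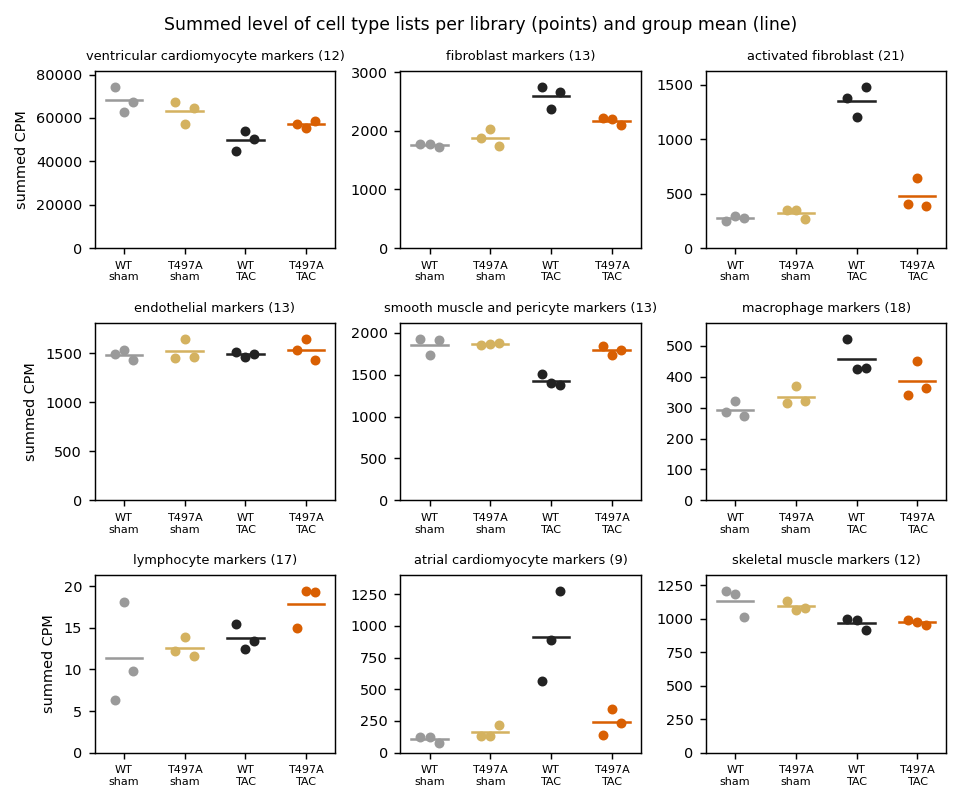
Summed CPM (vertical axis, from 0) of 9 cell type lists in each library (points; lines are means of 3), by group on the horizontal axis, with the number of genes in brackets. The activated fibroblast sum separates the genotypes after TAC (means 1350 CPM in WT and 479 CPM in T497A), while endothelial and macrophage sums overlap. Ventricular cardiomyocyte, general fibroblast, smooth muscle and atrial sums do not overlap either. The atrial sum (567 to 1270 CPM in WT, 142 to 341 CPM in T497A) includes Nppa, while the atrial genes Myl7 and Myl4 overlap. The skeletal muscle list includes genes that heart muscle also uses.

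The largest rises in T497A came from genes outside the lists as well. Ces1d, a carboxylesterase that hydrolyses lipids, was at 11.2, 15.5 and 6.57 CPM in WT and 64.9, 46.4 and 61 CPM in T497A, 5.17-fold higher (2.37 ± 0.31, adjusted p = 0.0034); it has close paralogs, so its counts depend on how shared reads were assigned. Pla2g5, a secreted phospholipase, was at 9.6, 12.1 and 10.2 CPM in WT and 25.4, 25.8 and 24.3 CPM in T497A (1.24 ± 0.12, adjusted p = 0.000249). Enpp2, the enzyme that makes lysophosphatidic acid, was at 4.45, 4.09 and 4.15 CPM in WT and 9.55, 11 and 12.4 CPM in T497A (1.37 ± 0.15, adjusted p = 0.000337). Gfra1, a receptor of the GDNF family, was at 3.92, 3.58 and 4.64 CPM in WT and 8.9, 10.9 and 14.1 CPM in T497A (1.48 ± 0.18, adjusted p = 0.000722). These 4 held their call. The glycosidase Myorg was at 9.21, 8.96 and 6.39 CPM in WT and 31.2, 29.7 and 26.4 CPM in T497A (1.83 ± 0.33, 0.0569 without WT TAC replicate 3). The pyruvate carrier Slc16a7 was at 4.82, 4.8 and 4.31 CPM in WT and 8.81, 10.8 and 12.3 CPM in T497A (1.2 ± 0.25, up to 0.0685). Mylk4, Klhl33, Cep128, Akr1e1 and the uncoupling protein Ucp2 lost their call with some libraries left out, with adjusted p up to 0.134, 0.0797, 0.0692, 0.104 and 0.145. In T497A Ucp2 stood at 77.7, 200.4 and 103 CPM, with replicate 2 above the others, against 59.4, 48.1 and 49.7 CPM in WT. By smallest p, Cmbl (0.71 ± 0.08) and Nt5c1a (0.67 ± 0.08) were also higher and Carhsp1 (-0.97 ± 0.10) lower, and these 3 held their call.

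**Figure D5:**
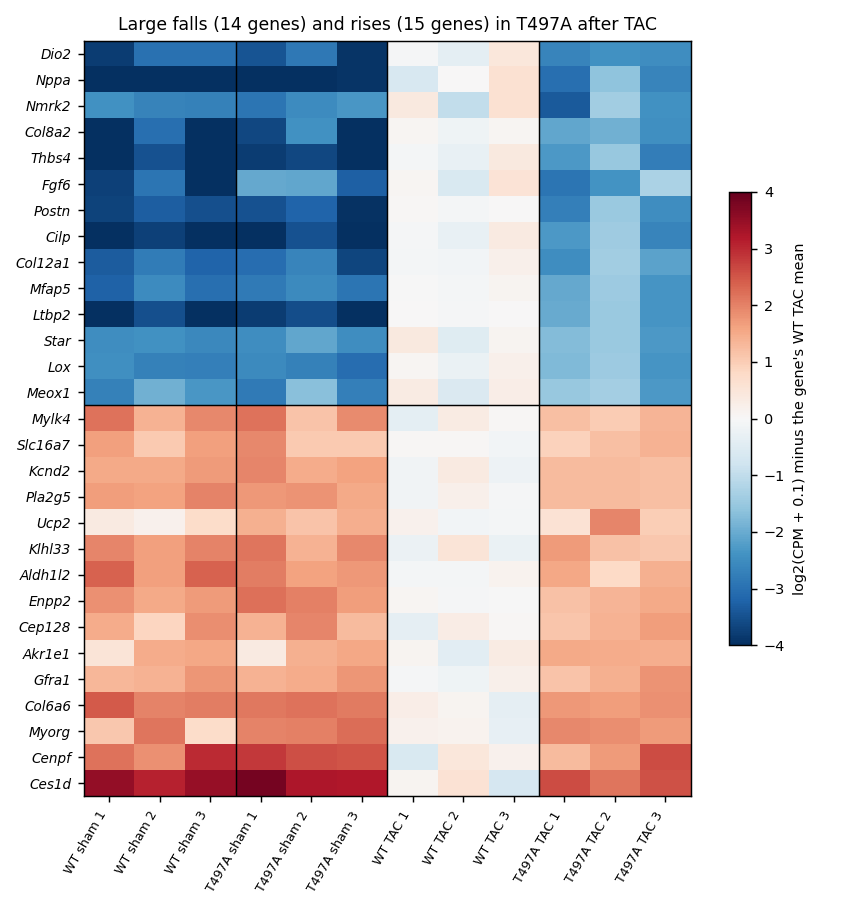
Level of 14 genes with large falls and 15 with large rises in T497A after TAC (rows) in each of the 12 libraries (columns), as log2(CPM + 0.1) minus the gene's mean over the 3 WT TAC libraries; blue is lower and red higher, and values beyond 4 in either direction take the end colour. The T497A TAC columns are blue in the upper 14 rows and red in the lower 15 (Nppa at 97.1 to 252 CPM, against 500.1 to 1187 CPM in WT TAC).

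The difference between genotypes after TAC was also tested against that after sham, as an interaction in the same model. The test called 248 of 15764 genes (1.57%), 141 (0.894%) with a higher and 107 (0.679%) with a lower T497A-minus-WT difference after TAC than after sham. It called 44 without WT TAC replicate 3, 67 without T497A TAC replicate 3, 77 without T497A TAC replicate 1, 133 without WT TAC replicate 1 and 517 without T497A TAC replicate 2, and DESeq2 called 816. Among the lists it called 7 of 37 TCA cycle and branched-chain genes, 6 of 22 collagen processing genes and 5 of 42 fatty acid genes. It called 2 of 20 natriuretic and hypertrophy genes and 0 of 13 mitochondrially encoded genes. Set side by side, with no test of the medians, the median log2 change from sham to TAC in the natriuretic and hypertrophy list was 1.98 in WT and 0.75 in T497A. In the collagen list it was 1.67 in WT and 0.66 in T497A, in the fatty acid list -0.59 and -0.27, and in the TCA list -0.54 and -0.22. Each of these 4 median changes was smaller in T497A and of the same sign in both. The pairs share the TAC libraries with the comparison above.

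Large differences that did not pass show where replicates spread. Rab6b, a vesicle GTPase, was at 0.395, 3.97 and 0.652 CPM in WT and 4.77, 13.5 and 24.4 CPM in T497A (adjusted p = 0.106). Angptl7 was at 14.1, 82 and 26.1 CPM in WT and 4.55, 5.9 and 12.2 CPM in T497A (adjusted p = 0.123). The retinol-binding protein gene Rbp7 was at 15.2, 31.8 and 30.02 CPM in WT and 6.67, 4.83 and 6.9 CPM in T497A (adjusted p = 0.0831). Each was picked from genes without overlap between genotypes at a mean of at least 5 CPM, so the lack of overlap is no finding. Libraries of the same group differed widely. DESeq2 called each of these genes, and limma-voom called Rbp7. The share of genes called rose with level: of 3 classes of equal size by mean CPM, 164 of 5255 genes were called in the lowest, 426 of 5254 in the middle and 781 of 5255 in the highest, with a median absolute log2 difference among the called of 1.46, 0.66 and 0.43.

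Some of these genes share exon bases with a gene on the opposite strand over more than 10% of their exon length, among them Nppa, Pln, Uchl1, Ccn2, Loxl3, Plod3, Kcnj3, Aldh1l2, Nmrk2, Tgm2 and Prc1. Whether counting used strand is not given in the sources used here, so reads of such neighbours cannot be told apart from their own. Summed over the 6 TAC libraries, neighbours had 154 counts beside 128254 of Nppa, 3 beside 4026 of Uchl1 and 216 beside 57361 of Ccn2. They had 2021 beside 2835 of Loxl3 and 4392 beside 7582 of Plod3. For Aldh1l2 and Nmrk2 the neighbour had more counts than the gene.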

How the data were processed

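Poly(A) RNA of left ventricle was sequenced as single-end reads of 75 cycles, per the labels' protocols. The deposited table holds raw counts of reads per gene, which the authors made by trimming with Trim Galore 0.6.4, alignment with STAR 2.7.3a to mm10 and counting with featureCounts of Subread 1.6.3, per the submitters' processing notes; strand use and handling of multiply mapped reads are not stated there. Every one of the 12 sample columns was mapped to a sample by its title. Gene IDs were matched without version to GENCODE M21 (GRCm38), 15751 of 15764 tested genes.

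From these counts, genes were filtered (filterByExpr, minimum count of 10) and scaled by TMM factors, and 1 quasi-likelihood model of 4 groups of 3 libraries was fitted (edgeR 4.0.16 in R 4.3.3, robust, 8 residual degrees of freedom). Log2 differences are given ± SE, that is the difference divided by the square root of its F value, with p-values adjusted by Benjamini-Hochberg across the tested genes, called at 0.05. CPM values are counts per 1000000 of the TMM-scaled library, are not divided by gene length and are not compared between genes. DESeq2 1.42.0 and limma 3.58.1 (voom) were run as alternatives. The model was tested on simulated counts. The biological coefficient of variation was 17.2%.

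Genes were named by a rule of several parts. Some parts took only genes at a mean of at least 5 CPM, without overlap between groups and without a predicted-gene name. These were the 15 largest called rises and falls, the 10 smallest p-values, the 5 smallest interaction p-values and the largest differences not called. The others were the 10 largest called differences in CPM, up to 6 called members per list and direction, and fixed marker genes. Further list members without values and genes said to be chosen after their values were seen fall outside the rule. A few genes that the rule names are not reported here. The members and the 47 gene lists were chosen with earlier results of these data known.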

Additional observations from a re-analysis of the deposited data

Results flagged for a closer look

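For 248 of 15764 genes the T497A-minus-WT difference after TAC differed from that after sham by the interaction test of the same model (edgeR, adjusted p under 0.05). Those among the named genes reported here follow, each value being the log2 interaction, that is the T497A-minus-WT difference after TAC minus the one after sham; no explanation was tested. Among matrix and collagen processing genes it was -2.05 for Mfap5, -1.72 for Lox, -1.39 for Loxl3, -1.31 for Mgp, -1.19 for Mmp23, -1.11 for Col1a2, -1.1 for Col16a1, -1.09 for Serpine2, -0.99 for Pcolce, -0.76 for Ltbp3, -0.7 for Plod3 and -0.46 for P4hb. Col6a6 went the other way at 1.82, as did the fibroblast marker Scara5 at 0.94.

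Among ligands, receptors and pathway regulators it was -2.28 for Edn3, -1.4 for Tgfb2, -1.25 for Nkd2, -1.01 for Sfrp1, -0.91 for Hbegf, -0.89 for Ace, -0.8 for Tgfb3, -0.61 for Fgfr1, -0.58 for Sulf1 and -0.47 for Ski. It was 1.43 for the receptor gene Gfra1 and 1.07 for Enpp2. Among stress, cytoskeletal and remaining genes it was -3.12 for the cyclin Ccnb1, whose counts were low, -2.43 for Dio2, -2.02 for Star, -1.72 for Uchl1, -1.71 for Map6, -1.52 for Nupr1, -1.05 for Carhsp1, -1.04 for Ctsk, -1.03 for Gpx3, -0.87 for Xirp1, -0.85 for Pmp22 and -0.66 for Flnc.

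Among metabolic genes it was 2.29 for Ces1d, 1.68 for Aldh1l2, 1.32 for Pla2g5, 0.95 for Ppm1k, 0.94 for Nt5c1a, 0.78 for Dbt, 0.74 for Cmbl, 0.69 for Acaa2, 0.58 for Mccc2, 0.53 for Gstm1, 0.51 for Acsl1, 0.5 for Suclg2, 0.48 for Etfa, 0.46 for Esrrg, 0.44 for Acadm and 0.43 for Sucla2. Among channel, calcium and contractile genes it was 1.12 for Kcnd2, 1.05 for Ttll1, 0.94 for Abcc9, 0.84 for Kcnip2, 0.78 for Ryr2, 0.57 for Hrc and 0.53 for Lmod3.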

How the results depend on the processing

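No paired analysis was possible because the labels give every library the same replicate number, so no number pairs libraries across the groups. All 1371 called genes that could be fitted kept their sign under every alternative. For the 1361 without overlap between genotypes this was largely set in advance and is no support for the calls. Beside 1371 called, 731 higher and 640 lower, a test against a fold of 1.2 called 288, with 138 higher and 150 lower. The 6 TAC libraries alone gave 916 called, with 416 higher, 500 lower and 788 of the calls shared. The remaining alternatives (scaling, test, low-count filter, mitochondrial genes, robust estimation) called 1305 to 1963, DESeq2 most and the table without mitochondrial genes fewest. Across all these alternatives, the fewest members called higher were 1 fatty acid gene and 3 TCA cycle and branched-chain genes. They were 0 nuclear respiratory chain genes and 1 mitochondrially encoded gene. The fewest called lower were 5 in the hypertrophy list, 5 in the collagen list and 5 in the collagen processing list. With a library left out, 463 to 1455 genes were called, 260 to 762 of them higher and 203 to 693 lower, fewest without WT TAC replicate 3 and most without T497A TAC replicate 2. Leaving out a library leaves 2 against 3, and the cause of the spread was not tested. The interaction called 248 genes, 816 with DESeq2, 898 without a low-count filter, 32 against a fold of 1.2 and 44 to 517 with a library left out; the cause was not tested. By level, 164 of 5255 genes were called in the lowest of 3 classes and 781 of 5255 in the highest; the part of depth in this was not tested.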

Other observations

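The 4 genes called after sham surgery were also called after TAC; they are named here after their values were seen. Gm10039 was at 2.02, 2.12 and 2.28 CPM in WT TAC and 10.1, 10.4 and 10.9 CPM in T497A TAC (2.29 ± 0.15, edgeR adjusted p = 7.37e-06), beside 1.98 ± 0.431 CPM in WT sham and 12.8 ± 0.204 CPM in T497A sham (SD, n = 3). Gpr179, an orphan receptor gene, was at 0.11, 0.0693 and 0.0233 CPM in WT TAC and 2.99, 2.17 and 0.996 CPM in T497A TAC (4.86 ± 0.74, adjusted p = 0.00279), beside 0.0732 ± 0.0875 and 2.73 ± 1.43 CPM in the sham groups of WT and T497A. The predicted genes Gm6612 (4.12 ± 0.60) and Gm7666 (1.79 ± 0.27) were the others; counts of such genes are uncertain, since they can share reads with near-identical copies. All 4 held their call with each TAC library left out.

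Within 5 Mb of Prkca on chromosome 11, 11 of 75 tested genes were called (14.7%, against 8.7% of all), 5 higher and 6 lower. Of 33 tested genes of the mitochondrial genome 21 were called, all higher (median log2 difference 0.598). On the X chromosome 43 of 512 tested genes were called (8.4%), and on the Y chromosome edgeR called 0 of 7.

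Adgrf3, an adhesion receptor gene, had the largest log2 difference among called genes with a mean of at least 5 CPM, but WT TAC replicate 3 lay within the T497A range. It was at 14.5, 16.8 and 0.0932 CPM in WT and 0, 0.145 and 0.255 CPM in T497A (adjusted p = 0.0409), and it was called in 1 of the 6 fits with a library left out (largest adjusted p 0.136). Just inside the threshold stood Lsamp, with a log2 difference of 0.88 and an adjusted p of 0.0497; it was called in 2 of the 6 (largest adjusted p 0.169). Just outside it stood Phactr2, with 0.25 and 0.0501.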
